A study of Mus musculus with 16 samples.

Results

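Some of these samples of epididymal fat carried abundant transcripts of a motile ciliated epithelium, and most did not. The libraries were sorted by Foxj1, the transcription factor that switches on the genes of motile cilia, after resveratrol 4 had been left out for its Crisp1 level above 1000 CPM (a gene's counts scaled to a common mRNA total in every library). Libraries with 5 CPM of Foxj1 or more were chosen by that level as rich in ciliated epithelium, which gave 5 of the 16 libraries, and the 10 others had less. The 5 ciliated-rich libraries were 1 of the 4 libraries on a normal diet, 3 of 4 on a high-fat diet (HFD) with metformin, an antidiabetic biguanide, and 1 of 4 on HFD with resveratrol, a plant polyphenol. The 10 others were 3 on the normal diet, all 4 on HFD alone, 1 with metformin and 2 with resveratrol.

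All mice were male C57BL/6 (C57BL/6J in the growth text), were bought at 6 weeks of age and about 22 g, and gave whole epididymal white fat. The HFD held 60% fat and ran for 8 weeks before the drugs, which were given for 6 weeks. The titles name epididymal fat, while the extraction text names retina and the treatment text skeletal muscle. A library labelled "unmatched" carries a code of its group that is in no sample title. Nothing in the labels says which animals shared a cage or were dissected together, so the tests take each library as a replicate and their p-values reflect library-to-library spread alone. Some sample codes share a leading number within a group, as in HFD 1, HFD 2 and HFD 3. What it stands for is not stated, and the tests make no allowance for it. Mitochondrial mRNA made up 1.01 to 1.44% of mRNA counts in the 5 and 0.833 to 2.08% in the 10. Libraries held 13734379 to 19567404 mRNA counts among the 5 ciliated-rich ones and 13350585 to 20531032 among the 10 others.

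Motile cilia are built on microtubule doublets that carry rows of dynein motors, and they beat to move fluid. In the male tract they line the efferent ducts, which join the testis to the epididymis and reabsorb most of the fluid that leaves the testis. The epididymal fat pad is attached along this region, and fat itself has no motile ciliated cells. Foxj1 acts together with transcription factors of the RFX family, which bind a sequence called the X-box in the promoters of many ciliary genes.

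The X-box half-site searched here was GTTGCC, on either strand (GGCAAC on the other). It is shown because many promoters of ciliary genes carry it. RefSeq promoter windows (build GRCm38.p6, 250 bases before to 50 bases after each start) were at hand for 67 genes of the 5 motile cilia lists described below. The half-site was in 33 of these 67 (49.3%), against 3821 of 27025 genes with a window (14.1%), where a gene with several windows counted if any held it. It was in 7 of 30 adipocyte genes (23.3%) and 0 of 14 epithelial genes. The share was highest, 10 of 14 (71.4%), in intraflagellar transport and BBSome genes, which differed little between the kinds of library (below). It was 4 of 14 (28.6%) in genes of dynein arms, which differed far more. The half-site thus did not go with the size of the difference from list to list. A match is a description of the letters and not of binding. Of the motile cilia genes with a match, the 4 of highest mean level in the ciliated-rich libraries are printed 5′ to 3′ on the gene's strand, with the half-site in capitals. Cfap44 encodes a protein that tethers inner dynein arms to the axoneme, Hydin a protein of the central pair of microtubules, and Dnah10 and Dnah7b heavy chains of inner dynein arms. The windows are chr16:44394549-44394848, chr8:110266727-110267026, chr5:124724835-124725134 and chr1:46066603-46066902, all on the plus strand.
Cfap44: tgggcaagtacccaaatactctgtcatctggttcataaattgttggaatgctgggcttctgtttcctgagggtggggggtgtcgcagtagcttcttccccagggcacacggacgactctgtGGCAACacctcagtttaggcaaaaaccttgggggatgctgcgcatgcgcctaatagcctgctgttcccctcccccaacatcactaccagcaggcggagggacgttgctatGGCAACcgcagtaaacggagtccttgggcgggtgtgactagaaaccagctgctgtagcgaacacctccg
Hydin: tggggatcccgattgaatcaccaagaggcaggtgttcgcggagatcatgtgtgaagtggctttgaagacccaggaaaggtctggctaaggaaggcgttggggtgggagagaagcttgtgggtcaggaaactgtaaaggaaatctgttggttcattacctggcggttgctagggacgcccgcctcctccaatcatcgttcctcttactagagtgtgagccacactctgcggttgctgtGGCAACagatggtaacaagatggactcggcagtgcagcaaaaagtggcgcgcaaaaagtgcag
Dnah10: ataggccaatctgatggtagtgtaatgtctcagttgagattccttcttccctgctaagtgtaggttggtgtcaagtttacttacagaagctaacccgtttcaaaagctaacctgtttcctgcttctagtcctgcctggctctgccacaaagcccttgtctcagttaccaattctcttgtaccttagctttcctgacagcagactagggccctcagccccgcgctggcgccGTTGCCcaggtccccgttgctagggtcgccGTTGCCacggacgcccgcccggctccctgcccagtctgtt
Dnah7b: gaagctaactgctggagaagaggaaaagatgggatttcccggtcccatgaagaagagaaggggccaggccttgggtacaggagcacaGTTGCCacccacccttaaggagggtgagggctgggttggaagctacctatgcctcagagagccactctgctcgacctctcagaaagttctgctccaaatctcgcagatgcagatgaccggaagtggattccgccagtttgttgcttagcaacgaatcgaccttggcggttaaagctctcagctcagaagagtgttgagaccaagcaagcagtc
Mean levels of these genes in the 5 ciliated-rich libraries were 114 CPM for Cfap44, 97.6 CPM for Hydin, 77 CPM for Dnah10 and 67.4 CPM for Dnah7b. The half-site occurs 2 times in the Cfap44 window and 2 times in the Dnah10 window, and 1 time in each of the others.

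Foxj1 (chromosome 11, 116330704 to 116335399, GRCm38) had 104 CPM in normal diet 2, 79.7 CPM in metformin unmatched, 107 CPM in metformin 2, 48.1 CPM in metformin 4 and 65 CPM in resveratrol 2. The 10 others had 0 to 0.438 CPM with a median of 0.296 CPM. These levels define the groups and are given without a test. The lowest library above the threshold had 48.1 CPM and the highest below it 0.438 CPM, so no library lay near 5 CPM. Resveratrol 4 had 3.46 CPM.

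Dnah5 (chromosome 15, 28203752 to 28472052), a heavy chain of the outer dynein arms that drive the beat, followed the same split. It had 203, 150, 173, 96.2 and 123 CPM in the ciliated-rich libraries, in the order above, and 0 to 0.73 CPM in the others (median 0.206 CPM). Crisp1 (chromosome 17, 40293758 to 40319207), a sperm-binding protein secreted by principal cells of the epididymis, did not follow it. Crisp1 had 15.2, 16.3 and 16.1 CPM in metformin unmatched, 2 and 4, and 0 CPM in normal diet 2 and resveratrol 2. Among the others it had 15.4 CPM in metformin 1 and at most 0.178 CPM elsewhere, so its low level went with the metformin group and not with Foxj1. It reached 12131 CPM in resveratrol 4. Whether reads carried over from such a library gave the near-constant 15.2 to 16.3 CPM in the 4 metformin libraries was not tested, so these values are not read as expression there.

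**Figure D1:**
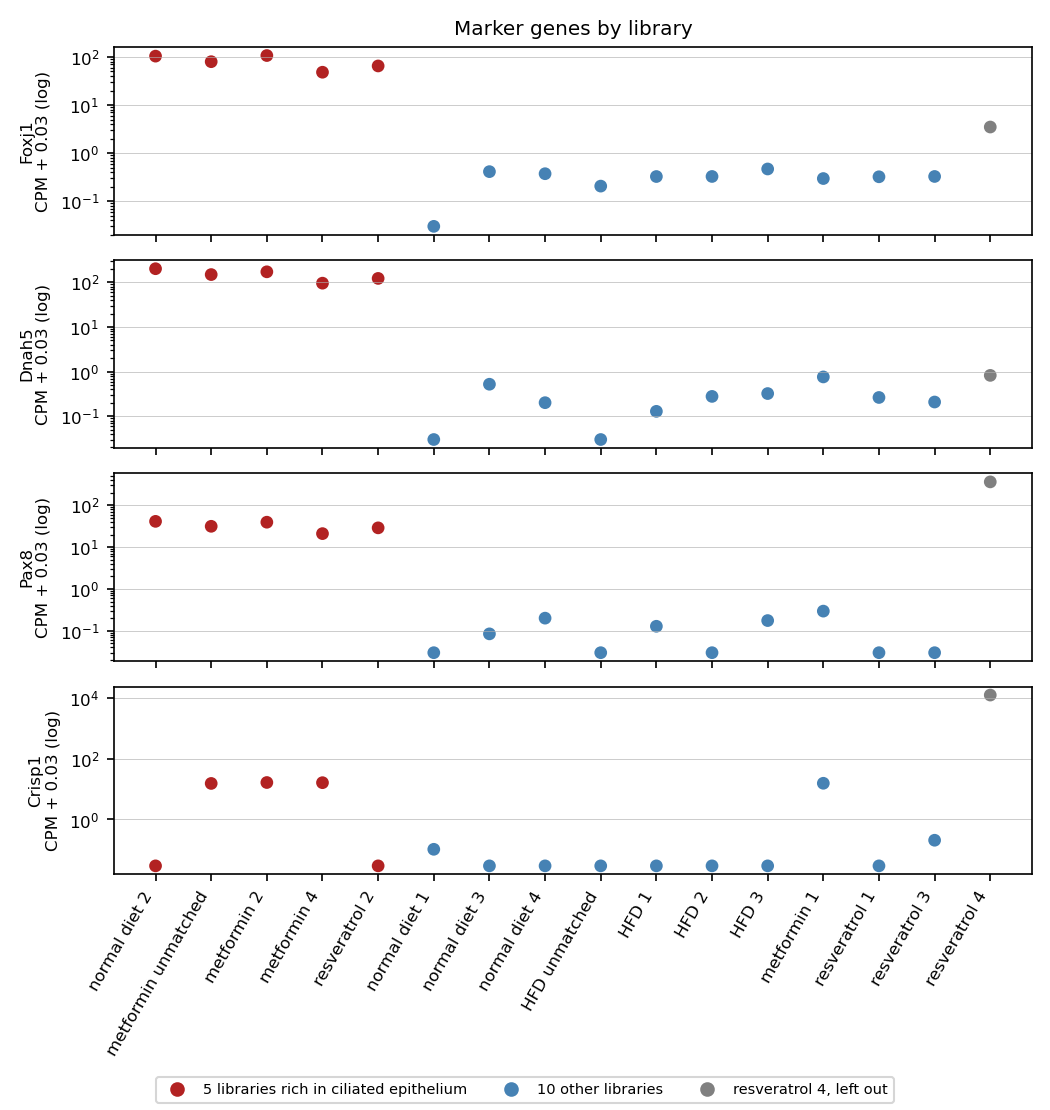
Levels of Foxj1, Dnah5, Pax8 and Crisp1 in each library, as CPM plus 0.03 on a log axis (points; red, ciliated-rich; blue, others; grey, resveratrol 4). Foxj1 is at 48.1 CPM or more in the 5 ciliated-rich libraries and at 0.438 CPM or less in the 10 others, while Crisp1 is at 15.2 to 16.3 CPM in all 4 metformin libraries.

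The comparison of the kinds of library was fitted across all genes with edgeR's quasi-likelihood test, with treatment group as a covariate, so that it rests on differences within the normal diet, metformin and resveratrol groups. A log2 difference is that of the ciliated-rich libraries minus the others. At a Benjamini-Hochberg adjusted p under 0.05, 1968 of 17535 genes (11.2%) were higher and 734 (4.19%) were lower in the ciliated-rich libraries. The median log2 difference of all genes tested was -0.01. The 781 called genes that were over 8-fold higher made up 0.757 to 2.02% of mRNA counts in the ciliated-rich libraries and 0.0268 to 0.0633% in the others. The 5 libraries were grouped by a gene of this tissue, so the counts of ciliary and tract genes below describe what came with Foxj1, and nothing is read from their calls. The groups were not assigned by the study, and fewer cells of a type and less RNA per cell cannot be told apart in bulk tissue.

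Genes of motile cilia came with Foxj1 nearly as a set. The libraries were sorted by Foxj1, which switches these genes on, so their calls follow that choice and are not a test of it. Foxj1, whose level chose the libraries, is left out of the counts of its lists. Over the 5 lists of motile cilia, 65 of 79 tested genes were called higher and 0 lower by edgeR, with a median log2 difference of 4.72 (71 and 1 at an unadjusted p under 0.05, and 63 and 0 with DESeq2). In addition 70 of 83 genes were higher in all 5 ciliated-rich libraries than in any other. Over all genes tested, 9.95% were so placed. With Foxj1, the lists summed to 2957 CPM in normal diet 2, 2524 CPM in metformin unmatched, 5400 CPM in metformin 2, 1839 CPM in metformin 4 and 2173 CPM in resveratrol 2. In the others the sum was 554 to 908 CPM. Of the 83 genes, 4 had too few counts for the test.

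Among regulators of ciliogenesis, 6 of 9 tested genes other than Foxj1 were called higher (median log2 3.80). Trp73, which encodes p73, a factor upstream of Foxj1, had 12.4, 5.16, 4.85, 6.03 and 6.48 CPM in normal diet 2, metformin unmatched, 2 and 4 and resveratrol 2, against 3 counts in all 10 others together. Gmnc, which starts the multiciliated programme, had 9.59, 9.46, 10.2, 6.08 and 6.04 CPM, against at most 0.178 CPM in the others. Mcidas, which acts with it, was barely counted, with 0 to 0.262 CPM in the ciliated-rich libraries. Myb, needed for centriole amplification, had 13.5 to 26.9 CPM against 0.457 to 1.73 CPM. The RFX factor Rfx3 was present in every library, with 30.8 to 61.7 CPM against 13.2 to 19.7 CPM (log2 1.30, SE 0.16). E2f4, a cofactor of the same programme that also acts in the cell cycle of other cells, had 20.2 to 24.1 CPM against 19.6 to 27.8 CPM, and the groups overlapped fully.

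Among the lists of motile cilia, the motors and the scaffold of the axoneme had the highest medians. Of 15 genes of dynein arms, 14 were called higher (median log2 5.34). Dnah11, an outer arm heavy chain like Dnah5, had 171, 114, 129, 80.1 and 92 CPM in the ciliated-rich libraries, against 0 to 0.496 CPM. Dnah6, an inner arm heavy chain, had 75.9 to 182 CPM against 1.32 to 3.03 CPM, and Dnah12 had 71.5 to 191 CPM against 0.297 to 1.15 CPM. The gene of this list without a call was Dnah3, with 41.4 to 201 CPM against 1.95 to 30.3 CPM. Among the others it had 1.95 to 3.67 CPM in HFD 1, 2 and 3 and 19.1 to 30.3 CPM in the remaining 7. Of 16 genes of radial spokes, the central pair and nexin links, 15 were called higher (median log2 5.52), among them Hydin with 52.2 to 184 CPM against 0.273 to 2.29 CPM and Cfap54, another central pair protein, with 55 to 135 CPM against 1.9 to 5.62 CPM.

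Assembly factors and inner proteins of the microtubules followed, with more members that are also transcribed elsewhere. Of 13 genes for dynein assembly and docking, 11 were called higher (median log2 3.93). Dnaaf5, an assembly factor, had 22.8 to 35.6 CPM against 16.5 to 23.8 CPM, a log2 difference of 0.42. Of 26 genes of microtubule inner and other motile cilium proteins, 19 were called higher (median log2 4.15). Cfap44 had 145, 115, 147, 81.2 and 83 CPM against 0.117 to 0.583 CPM, while the tubulins Tuba1a (210 to 452 CPM against 174 to 604 CPM) and Tubb4b (134 to 323 CPM against 87.4 to 141 CPM) were abundant in both kinds of library. Intraflagellar transport and BBSome proteins also serve the single primary cilium of other cells. In that list 6 of 17 genes were called higher with a median log2 of 0.49, led by Dync2h1, the motor of return transport, with 96.3 to 245 CPM against 38.9 to 62.3 CPM.

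**Figure D2:**
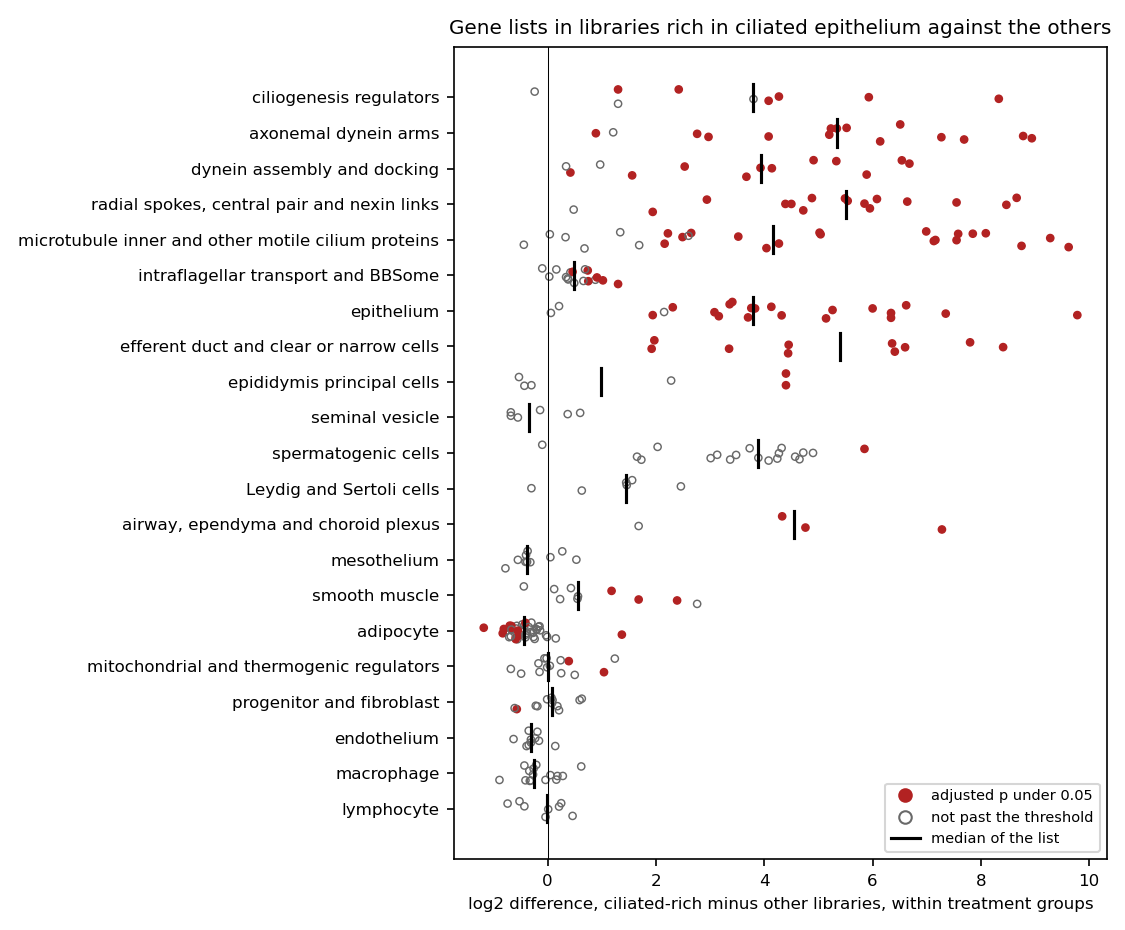
Log2 difference of each tested gene (points, 1 row for each list; filled red where the adjusted p is under 0.05) and the median of each list (black bars), ciliated-rich minus other libraries within treatment groups. Foxj1 is left out. Medians of the 5 motile cilia lists lie between 3.80 and 5.52, and those of the adipocyte, endothelium and macrophage lists at -0.43, -0.31 and -0.26.

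Epithelial genes and genes of the efferent ducts came with the ciliary ones. In the list of general epithelial genes, 19 of 22 tested were called higher (median log2 3.79). The list is not particular to the ciliated-rich libraries. It summed to 451 to 818 CPM in them, to 33.1 to 77.9 CPM in the others and to 5808 CPM in resveratrol 4. With resveratrol 4 included among the others, edgeR called 0 of 22 (4 higher at an unadjusted p under 0.05). Epcam, an adhesion protein of epithelia, had 59.3, 41.2, 45, 28.8 and 37.9 CPM in the ciliated-rich libraries, against 0.117 to 0.914 CPM, and Cdh16, a cadherin of kidney and tract epithelia, had 59.4, 50.2, 61, 35.7 and 51.7 CPM against 0 to 0.148 CPM. Prom1, found on protrusions of the apical membrane, had 98 to 212 CPM against 2.25 to 6.64 CPM. Krt7 and Krt19 are keratins also found in mesothelium, which covers the fat pad. Krt7 had 4.05 to 7.14 CPM against 0.89 to 10.7 CPM, with full overlap, and Krt19 had 23.6 to 46.2 CPM against 0.534 to 18.1 CPM.

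All 10 tested genes of the list for efferent ducts and for clear or narrow cells were called higher, with a median log2 of 5.41. Lrp2, the endocytic receptor megalin, had 690, 602, 605, 387 and 454 CPM in the ciliated-rich libraries, against 1.54 to 57.1 CPM in the others. Slc9a3, the sodium-proton exchanger of fluid reabsorption, had 50.3, 29, 43.4, 22 and 41.1 CPM against 0 to 0.229 CPM. Pax8, a transcription factor of kidney and tract epithelium, had 41.5, 31.6, 39.6, 21.1 and 29 CPM against 0 to 0.266 CPM. The chloride exchanger Slc26a3 had 17.2 to 27.6 CPM against 0 to 0.686 CPM. In contrast, Foxi1 and Atp6v1b1, which mark clear and narrow cells of the epididymis, stayed at 0 to 0.153 CPM and 0 to 2.62 CPM in the ciliated-rich libraries, and had too few counts for the test. The list is not particular to efferent ducts, since it summed to 507 to 900 CPM in the ciliated-rich libraries, to 9.25 to 66.1 CPM in the others and to 2539 CPM in resveratrol 4, the library of high Crisp1.

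Ciliated tissues elsewhere in the body share much of this set. A list of airway, ependyma and choroid plexus genes had 3 of 4 tested genes called higher, with a median log2 of 4.55. It summed to 51 to 102 CPM in the ciliated-rich libraries, to 1.61 to 22.4 CPM in the others and to 166 CPM in resveratrol 4. With resveratrol 4 included among the others, 1 of the 4 was called higher by edgeR (2 at an unadjusted p under 0.05). Its members differed. Scgb1a1 of airway club cells had 0 CPM in all 5 ciliated-rich libraries, and Sftpc of alveolar cells had at most 0.291 CPM. Kl (klotho), made in kidney and choroid plexus, had 17.1 to 28.4 CPM against 0 to 0.341 CPM, and Ttr, the transport protein of choroid plexus and liver, had 17.7 to 78.2 CPM against 0.633 to 21.8 CPM.

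Several of these transcripts kept a similar ratio to Foxj1 across the ciliated-rich libraries, and others did not. The ratio of Dnah5 to Foxj1 counts was 1.61 to 2 over the 5 libraries, although Foxj1 itself ranged from 48.1 to 107 CPM. Ratios to Foxj1 ranged 1.2-fold over the libraries for Pax8, 1.38-fold for Dnah11, 1.42-fold for Lrp2, 1.42-fold for Epcam and 1.74-fold for Slc9a3. They ranged 5.71-fold for Adam7, of the epididymis, and 193-fold for Dnah8, a dynein of sperm, which was highest in metformin 2. In resveratrol 4, the ratio of Pax8 to Foxj1 was 105, against 0.37 to 0.446 in the ciliated-rich libraries. These are ratios of counts with no correction for transcript length, so only the comparison between libraries can be read.

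Some genes outside the lists tracked Foxj1 as closely. The 8 genes most like it over the 15 libraries, by Pearson's r of log2(CPM + 0.5) among genes of 1 CPM or more on average, were B4galnt2, Dcdc5, Dnah11, Cdh16, Dao, Fgfr4, Slc7a9 and Efcab1 (r from 0.9978 to 0.9989). Such values follow from the wide gap between the kinds of library. Within the 5 ciliated-rich libraries alone r was 0.92 to 0.97. Dao, D-amino acid oxidase, had 64.8, 45.4, 52.3, 33 and 41.6 CPM in them against at most 0.233 CPM elsewhere, and the growth factor receptor gene Fgfr4 had 24.4 to 46.2 CPM against at most 0.296 CPM.

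The 10 largest called increases outside the lists were Drc7, Nme9, Slc7a9, Sult1c2, Kif12, Vwa2, Fbxw24, Mcoln3, Ccdc153 and Daw1. They were taken among genes averaging 5 CPM or more in the kind of library where they were higher, with the same direction in 3 treatment groups. Genes with almost no counts in the others, such as Vwa2 and Kif12, passed the count filter through the ciliated-rich libraries alone. This ranking thus describes what came with Foxj1 and is not a test. Slc7a9, a light chain of amino acid transport in kidney tubules, had 40.8, 33.4, 34.3, 21.3 and 29.6 CPM, against 7 counts in all 10 others together. Drc7, of the nexin-dynein regulatory complex, had 20, 14.8, 33.7, 11.3 and 13 CPM against 5 counts. Vwa2 had 4.7 to 9.44 CPM and 0 counts in the others, at least 425-fold higher when 3 counts over all others are taken as the floor. Kif12, a kinesin of kidney epithelium, had 4.75 to 8.98 CPM and 1 count in the others, a ratio of 1082 with a counting interval of 193 to 42805 (exact, 95%, counting error only).

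Transcripts of other parts of the male tract differed among the ciliated-rich libraries, and the summed level of epididymis principal cell genes was higher in all 5 than in 9 of the 10 others. Spermatogenic genes, such as the protamines of sperm heads, summed to 4214 CPM in metformin 2 and to 25.9 to 79.7 CPM in the other 4 ciliated-rich libraries, against 13.4 to 50.3 CPM in the 10 others. The list had 1 of 19 genes called higher. Metformin 2 also had 660 CPM of Leydig and Sertoli genes, 380 CPM of it from Insl3, a hormone of Leydig cells, against 14.3 to 19 CPM of the list in the other 4 and 9.51 to 18.1 CPM in the 10 others. Epididymis principal cell genes summed to 8.52 to 74.6 CPM in the 5, against 28.1 CPM in metformin 1 and 0.109 to 2.17 CPM in the 9 remaining libraries, and 2 of 6 tested genes were called higher, Adam7 and Ros1. Without Crisp1 the sum was 8.52 to 58.3 CPM in the 5, against 12.7 CPM in metformin 1 and 10747 CPM in resveratrol 4. Whether reads carried over from resveratrol 4 gave part of the values in the metformin libraries, those of Adam7 included, was not tested. Adam7, a membrane protein of the epididymis that sperm take up, had 36.3, 4.87, 27.8, 12.3 and 6.99 CPM in the 5 libraries, against 5.71 CPM in metformin 1 and 0 to 0.514 CPM in the 9 remaining libraries. Gpx5, an antioxidant enzyme of the caput epididymis, was at 0 to 1.28 CPM in the 5. Seminal vesicle genes summed to 276 CPM in normal diet 2 and 0 to 2.1 CPM in the other 4, against 1192 CPM in normal diet 4 and 0 to 42.4 CPM in the 9 remaining.

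**Figure D3:**
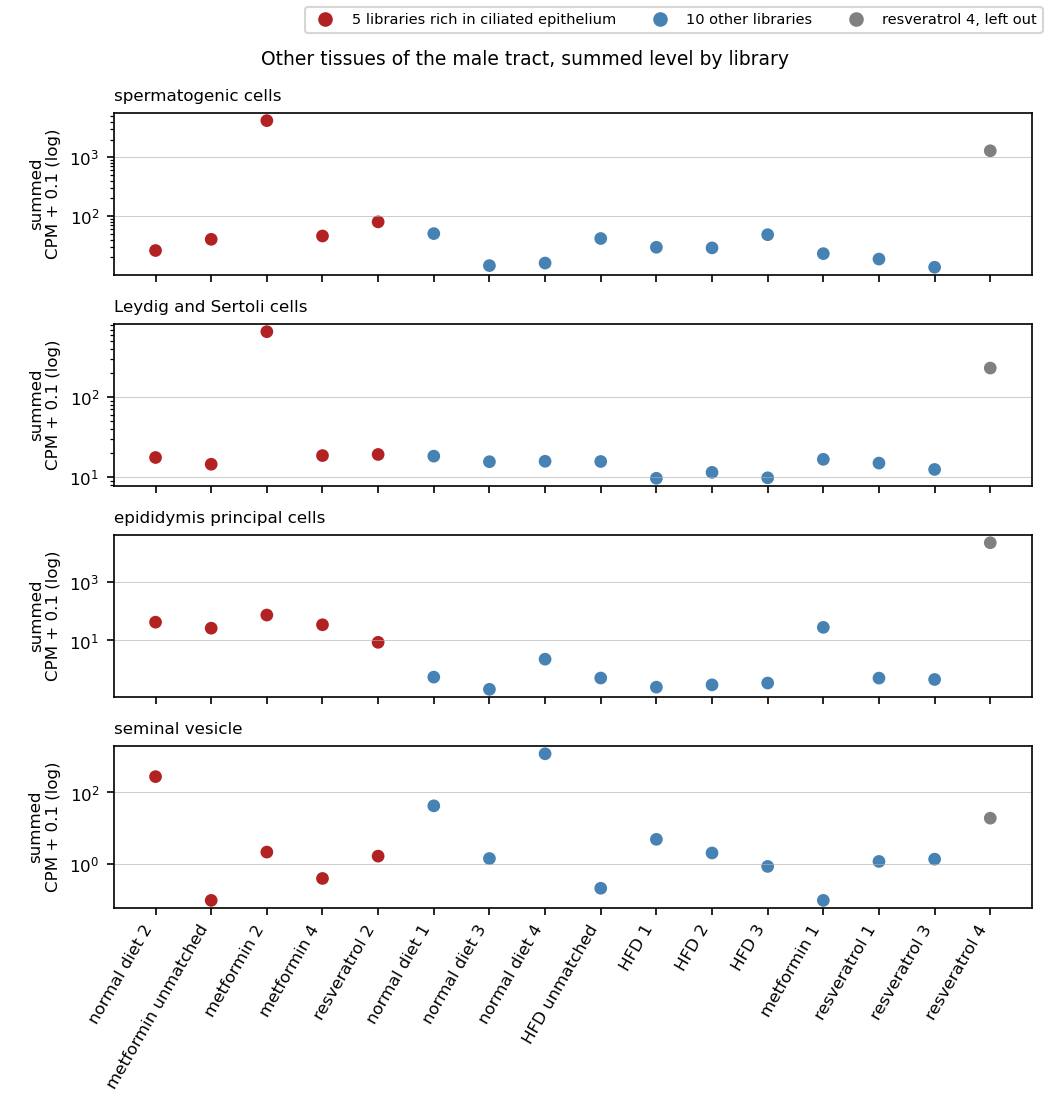
Summed level of 4 lists of male tract tissues in each library, as CPM plus 0.1 on a log axis (points; red, ciliated-rich; blue, others; grey, resveratrol 4). Spermatogenic and Leydig and Sertoli genes stand out in metformin 2 and resveratrol 4, and seminal vesicle genes in normal diet 4 (1192 CPM) and normal diet 2 (276 CPM).

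Sperm tails share the axoneme with motile cilia, and metformin 2 had an excess of part of the ciliary set. Of 80 motile cilia genes with 1 CPM or more on average in the ciliated-rich libraries, 38 were over 3-fold higher in metformin 2 than the mean of the other 4, and 25 were at most 2-fold higher. Deup1, a scaffold for making centrioles, had 59.8 CPM in metformin 2 and 0.874 to 1.61 CPM in the other 4, and the assembly factor Dnaaf1 had 168 CPM and 4.45 to 6.76 CPM. Dnah8, a sperm dynein of the spermatogenic list, had 637 CPM and 3.22 to 13.8 CPM. Foxj1, Dnah5 and Dnah11 showed no such excess. Without metformin 2 the median log2 difference of the axonemal dynein list was 5.09, against 5.34 with it. That of the ciliogenesis list other than Foxj1 was 2.40, against 3.80 with it.

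Fat cell genes leaned to lower levels in the ciliated-rich libraries, and 21 of 40 could be placed within 2-fold, a smaller share than over all genes. Of 40 adipocyte genes, 21 (52.5%) had a 95% interval of the log2 difference inside 2-fold (-1 to 1), against 11851 of 17535 genes (67.6%), and 16 of these 21 did not pass the test either. Resveratrol 4, with 3.46 CPM of Foxj1, would fall among the others, and its adipocyte list summed to 9895 CPM. With resveratrol 4 included there, 5 were inside 2-fold, and edgeR called 0 lower (2 at an unadjusted p under 0.05). Without that library, the list had 11 genes called lower, where 4.19% of all genes were, and 1 higher, a median log2 of -0.43, and 38 of 40 estimates below 0, against 51.5% of all genes tested. Summed levels of the list were 46971 to 80401 CPM in the ciliated-rich libraries and 63745 to 101191 CPM in the others, with overlap. Without metformin 1, the only other library of the metformin group, 0 adipocyte genes were called lower by edgeR (11 at an unadjusted p under 0.05), and the median was -0.42. The count called lower was 2 without normal diet 2, 3 without resveratrol 2 and 19 without metformin 4. DESeq2 on all 15 libraries called 15 lower.

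Of the 12 most abundant adipocyte genes, 8 did not pass edgeR's test and 4 were called lower. Scd1, a stearoyl-CoA desaturase, had 18249, 16985, 10627, 19759 and 17946 CPM in the ciliated-rich libraries, against 10115 to 29890 CPM (median 14188 CPM), with a log2 difference of -0.21 (SE 0.25, 95% interval -0.76 to 0.34, adjusted p = 0.637 in edgeR's test). Lpl, the lipase of circulating triglycerides, had 5409 to 9895 CPM against 7432 to 11628 CPM (log2 -0.38, interval -0.79 to 0.03, adjusted p = 0.203). The fatty acid carrier Fabp4 (log2 -0.49, adjusted p = 0.0755), the uptake receptor Cd36 (log2 -0.43, adjusted p = 0.0875) and the monoglyceride lipase Mgll (log2 -0.47, adjusted p = 0.0577) had intervals inside 2-fold that lay below 0. DESeq2 called all 3 lower (adjusted p = 0.0218, 0.0324 and 0.0142), and so did edgeR without metformin 2, the lowest library in Fabp4 and Cd36 (adjusted p = 0.0207, 0.0387 and 0.0109). In that setting the list had 13 genes called lower and a median of -0.38. Plin4, a lipid droplet coat protein, had 3842 to 6206 CPM against 3621 to 8370 CPM (log2 -0.58, interval -1.09 to -0.07, adjusted p = 0.12 in edgeR's test). For Fasn (fatty acid synthase) and Cfd (adipsin), the intervals of -1.18 to 0.84 and -1.05 to 0.45 were too wide to place them inside 2-fold. The hormone gene Lep had 234 to 1393 CPM against 205 to 4110 CPM and likewise was not placed (interval -1.10 to 0.79).

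Called decreases were of moderate size. Pck1, which makes glycerol backbones for triglyceride in fat, had 2859, 2378, 1749, 2062 and 2243 CPM in the ciliated-rich libraries, against 1242 to 5506 CPM (median 4055 CPM). Its log2 difference was -1.18 (SE 0.24, adjusted p = 0.00491 in edgeR's test). The overlap came from HFD alone, where Pck1 was 1242 to 2901 CPM. Within the normal diet, metformin and resveratrol groups, every ciliated-rich library was below every other, and without metformin 1 the call was lost. Adipoq (adiponectin) had 1887, 2391, 1466, 2360 and 2269 CPM against 2046 to 3757 CPM, and again lay below the others in each of the 3 groups (log2 -0.81, SE 0.19, adjusted p = 0.0116). The lipid droplet gene Cidec (log2 -0.83), the lipases Lipe (-0.70) and Pnpla2 (-0.68), and the adipogenic factors Pparg (-0.59) and Cebpa (-0.54) were also called lower. Adipoq, Cidec, Lipe, Pparg and Pnpla2 each lost the call without normal diet 2, without metformin 1 and without resveratrol 2, and Cebpa lost it without normal diet 2, metformin 1 or resveratrol 3. Over 23 alternative settings the call was lost in 9 for Pnpla2, in 6 for Cebpa and in 4 for each of the other 4, and the estimates stayed negative.

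The exception among adipocyte genes was Scd2, a desaturase with wider expression than Scd1. It had 266, 574, 504, 583 and 490 CPM in the ciliated-rich libraries, against 66.4 to 110 CPM in the 3 others on the normal diet, 206 CPM in metformin 1, and 234 and 148 CPM in resveratrol 1 and 3. Its log2 difference was 1.37 (SE 0.28, adjusted p = 0.00456). HFD alone had 468 to 1453 CPM, and with no treatment covariate the estimate was -0.17. Without normal diet 2 the call was lost.

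**Figure D4:**
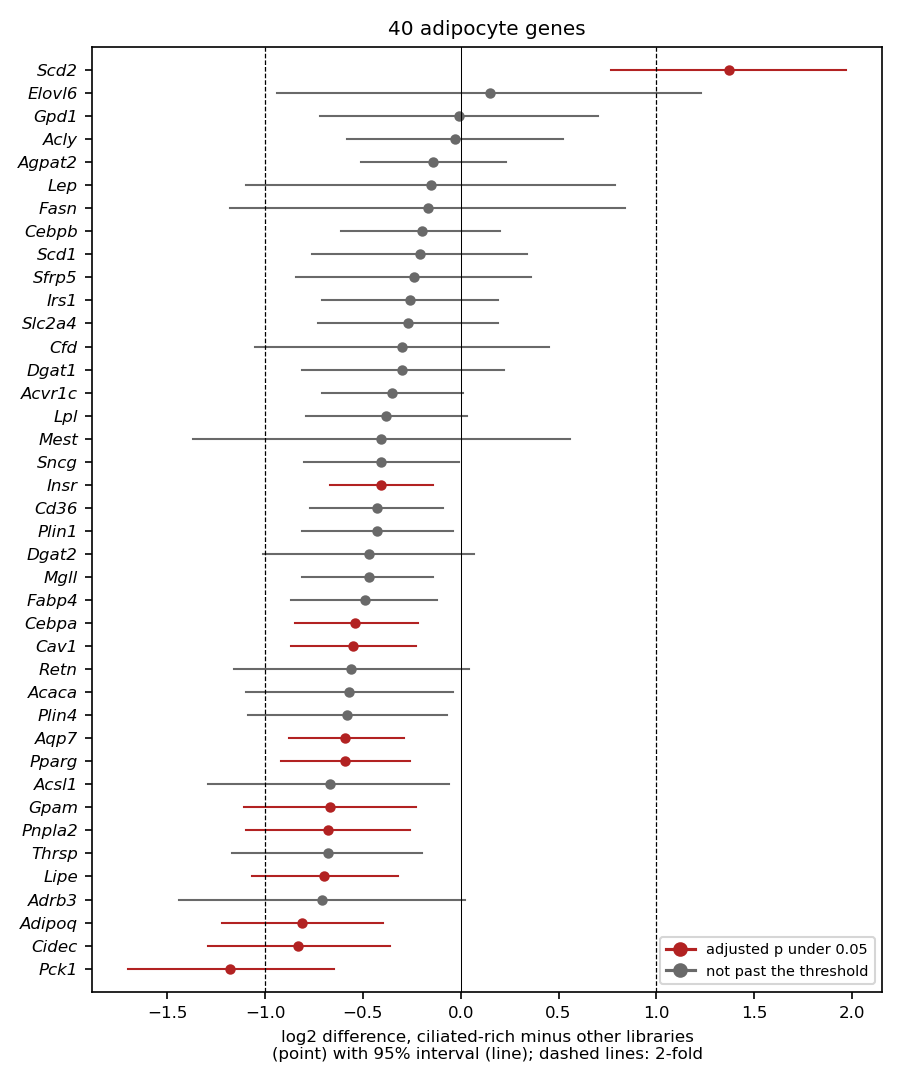
Log2 difference of 40 adipocyte genes between ciliated-rich and other libraries (points) with 95% intervals (lines; red where the adjusted p is under 0.05; dashed lines mark 2-fold). Estimates run from -1.18 for Pck1 to 1.37 for Scd2, and 21 intervals lie inside the dashed lines.

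Lists of the fat stroma had few calls, and the share of genes placed inside 2-fold, 67.6% over all genes, varied between them. Of 10 endothelial genes, 9 (90%) had intervals inside 2-fold, 9 estimates lay below 0 and 0 were called by edgeR (median log2 -0.31; 4 lower at an unadjusted p under 0.05, and 1 lower with DESeq2), for example the junction protein gene Cdh5 with 219 to 358 CPM against 296 to 449 CPM. Of 12 progenitor and fibroblast genes, 9 (75%) were inside 2-fold (median 0.07). Dcn, a matrix proteoglycan, had 496 to 1119 CPM against 445 to 1146 CPM. Cd55, a complement regulator of progenitors, was called lower by edgeR's test (log2 -0.57, adjusted p = 0.0215). That call was lost in 6 of 23 alternative settings, among them without normal diet 2, metformin 1 or resveratrol 2. The progenitor and fibroblast list had 2 genes lower at an unadjusted p under 0.05 and 2 lower with DESeq2. Of 15 macrophage genes, 7 (46.7%) were inside 2-fold and 0 were called by edgeR (median -0.26; 1 higher and 3 lower at an unadjusted p under 0.05, and 1 lower with DESeq2). C1qa, a complement subunit made by macrophages, had 55.6 to 83.5 CPM and lay below all 10 others (85.5 to 151 CPM), with log2 -0.43 and adjusted p = 0.0662. Over all genes tested, 19 lay below all others in this way. Mesothelial genes had 0 of 10 called by edgeR and a median of -0.38, with 1 interval (10%) inside 2-fold (1 lower at an unadjusted p under 0.05, and 1 lower with DESeq2). The lymphocyte list had 0 of 8 called by edgeR, 0 at an unadjusted p under 0.05 and 0 with DESeq2, and 1 interval (12.5%) inside 2-fold. Too few of these intervals were narrow enough to place either list. The mesothelial list summed to 187 to 273 CPM against 79 to 535 CPM.

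Smooth muscle genes leaned the other way, with 3 of 10 called higher, where 11.2% of all genes were, and a median log2 of 0.56, although the list summed to 745 to 1364 CPM against 594 to 1274 CPM. Myocd, the master coactivator of smooth muscle genes, had 7.87, 4.02, 6.49, 3.53 and 6.12 CPM in the ciliated-rich libraries, against 0.83 to 4.37 CPM, and overlapped the others only through normal diet 3 (log2 1.68, SE 0.32, adjusted p = 0.00283). Myh11, the smooth muscle myosin heavy chain, had 130 to 387 CPM against 50.8 to 392 CPM (log2 1.18, adjusted p = 0.0481), and Cnn1 (calponin) had a log2 difference of 2.39 (adjusted p = 0.0373). Both were highest in normal diet 2 and resveratrol 2 among the 5 and in normal diet 3 among the others, and the call of Myh11 was lost in 17 and that of Cnn1 in 13 of 23 alternative settings. The list's count called higher was 1 without normal diet 1, normal diet 2, HFD 1, HFD 2, metformin unmatched or any of resveratrol 1 to 3, and 6 without normal diet 3. It was also 1 with no filter on low counts. With resveratrol 4 included among the others, edgeR called 0 (2 higher at an unadjusted p under 0.05), and DESeq2 without that library called 4. Acta2, the smooth muscle actin also made by other cells, had 138 to 306 CPM against 109 to 290 CPM.

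Of the mitochondrial and thermogenic regulators, 9 of 14 (64.3%) had intervals inside 2-fold and 2 were called higher, near the 67.6% and 11.2% of all genes. Ppargc1a, the coactivator of mitochondrial genes, had 23.8, 16.9, 16.9, 17.2 and 18.2 CPM in the ciliated-rich libraries, against 2.73 to 14.2 CPM (median 6.81 CPM), with no overlap. The log2 difference was 1.04 (SE 0.19, adjusted p = 0.00215), and the call held in all 23 alternative settings, with adjusted p up to 0.0284. Within groups, normal diet 2 had 23.8 CPM against 8.46 to 14.2 CPM, the 3 metformin libraries 16.9 to 17.2 CPM against 7.5 CPM in metformin 1, and resveratrol 2 had 18.2 CPM against 6.11 and 7.81 CPM. The share of Ppargc1a that came from fat cells was not tested, as bulk counts hold no cell of origin. Sirt3, a mitochondrial deacetylase, had 15.1 to 18.9 CPM against 8.96 to 12.9 CPM (log2 0.39, SE 0.09, adjusted p = 0.0134 in edgeR's test). Its call was lost without normal diet 2 (log2 0.30) and held in the other 22 settings. Other members of the list showed no such gap between the kinds of library. Examples are Tfam, which packages mitochondrial DNA, with 19.3 to 30.2 CPM against 16.3 to 29 CPM, and Esrra with 29.3 to 33.4 CPM against 22.5 to 37 CPM. Ucp1, which uncouples respiration in brown fat cells, was not counted often enough to be tested.

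**Figure D5:**
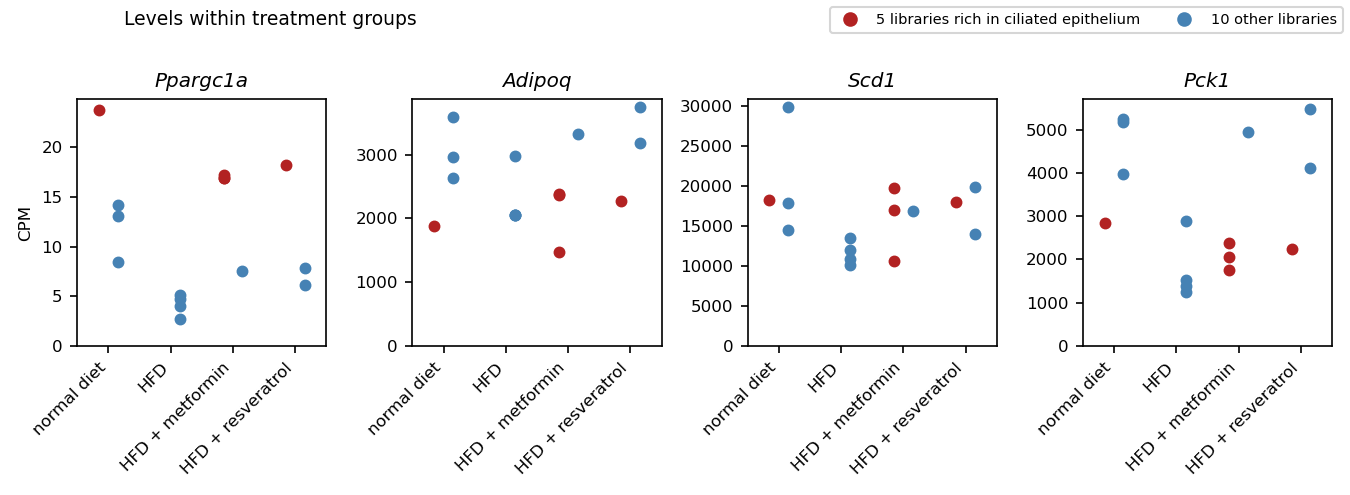
Ppargc1a, Adipoq, Scd1 and Pck1 in CPM (points, 1 for each library) by treatment group, with ciliated-rich libraries in red to the left of the others in blue. Ppargc1a is higher and Adipoq and Pck1 are lower in the ciliated-rich libraries of each group that has both kinds, and Scd1 overlaps.

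Genes called lower were mostly shifted by less than 2-fold, with 688 of 734 at an estimate above -1. The 10 largest decreases, by the same rule as the increases, were Gm21969, Ptgfr, Gpx1, Gabrr2, Gprin3, Thbs2, Thbs1, Fcna, Adamts16 and Hbb-bs. Thbs1, a matrix glycoprotein also released by platelets, had 1440, 1018, 904, 649 and 1216 CPM in the ciliated-rich libraries, against 725 to 4933 CPM (median 1997 CPM; log2 -1.35, SE 0.27, adjusted p = 0.00455). Its relative Thbs2 had 83.2 to 195 CPM against 141 to 457 CPM (log2 -1.36, adjusted p = 0.00938). Ptgfr, the receptor of prostaglandin F2 alpha, had 1.89 to 4.93 CPM against 2.78 to 24.1 CPM (log2 -1.96, adjusted p = 0.00397).

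Gpx1, a glutathione peroxidase, fell into separate levels among the others. It had 98.8, 80, 230, 87.2 and 101 CPM in the ciliated-rich libraries, while normal diet 1 and 3, metformin 1 and resveratrol 1 had 484, 465, 477 and 466 CPM and the remaining 6 others had 95 to 150 CPM. Its log2 difference was -1.92 (adjusted p = 0.00941), and the call was lost without normal diet 2 or without metformin 1. Hbb-bs, a haemoglobin chain of red blood cells, had 389 to 667 CPM against 267 to 1579 CPM (log2 -1.28, adjusted p = 0.0118), and Fcna, a ficolin of macrophages, had 16.8 to 25.9 CPM against 12.1 to 51.9 CPM (log2 -1.31, adjusted p = 0.00809). The count of 734 lower genes was 83 without metformin 1, of which 71 were shared, 169 without resveratrol 2 and 227 without normal diet 2. The count of higher genes was 1454, 1449 and 1280 in the same settings.

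The lncRNA table, with levels as CPM of the mRNA total and the same test, had 1175 of 24385 transcripts called higher (4.82%) and 200 lower (0.82%). The largest increase was NONMMUT146112.1 (chromosome 19, 38353174 to 38372552), with 14.1, 11.2, 10.1, 6.64 and 10.1 CPM in the ciliated-rich libraries and 0 counts in all 10 others, at least 610-fold higher against a floor of 3 counts over the others. Resveratrol 4, which was left out, had more of it (25.8 CPM). It overlaps NONMMUT146113.1 (38362238 to 38372552), which had 48.1, 37.3, 36.9, 29.1 and 31.1 CPM against at most 0.199 CPM and 95.2 CPM in resveratrol 4, and no gene of the mRNA table overlapped either. NONMMUT125137.1 (chromosome 7, 45418353 to 45421854) had 2.56 to 10.4 CPM and 0 counts in the others. It overlaps the genes Ruvbl2 (log2 0.41) and Lhb. NONMMUT024637.2 (chromosome 15, 89776984 to 89779168) had 3.91 to 7.1 CPM and 0 counts in the others. It lay 3225 bases from the synaptotagmin gene Syt10, whose own log2 difference was 7.75. NONMMUT148993.1 (chromosome 5, 73684016 to 73684498) lay 4504 bases from Spata18 (log2 6.48), and had 2.35 to 5.83 CPM against 2 counts in all others. NONMMUT146247.1 (chromosome 2, 30162502 to 30165243) had 4.19 to 8.65 CPM against 1 count. In resveratrol 4 these last 4 transcripts had 0 to 0.793 CPM. Transcripts with almost no counts in the others passed the count filter through the ciliated-rich libraries alone, so their ranking describes what came with Foxj1.

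Of the 1175 higher lncRNAs, 490 (41.7%) overlapped a gene called higher, against 6.2% of all lncRNAs tested. Whether strand was used in counting is not stated, and reads of overlapping transcripts cannot be told apart without it. The largest decreases rested on few libraries. NONMMUT072243.2 (chromosome X) had 0 CPM in the ciliated-rich libraries and in 6 others, and 1.8 to 4.45 CPM in normal diet 1, 3 and 4 and metformin 1. NONMMUT025970.2 (chromosome 16, 23156843 to 23157208) overlaps Adipoq and had 0.0511 to 0.0728 CPM, against 13.6 CPM in metformin 1, 3.82 to 10.9 CPM in HFD unmatched, HFD 2 and HFD 3, and at most 0.0749 CPM in the remaining 6. NONMMUT035066.2 (chromosome 19, 53444036 to 53447871) had at most 0.102 CPM against 0 to 0.914 CPM.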

How the data were processed

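Total RNA of 16 libraries was sequenced by the authors. Per the file headers, the deposited tables hold raw counts per mRNA and per lncRNA transcript and, beside them, FPKM values of the authors. Per the submitters' processing notes, fastp, HISAT2 and genome build GRCm38 were used. Counting tool, annotation release and strand setting were not given. In the mRNA file the header was 1 cell short, so values were read from the end of each line, and 5 split records were rejoined. The FPKM values served only to check which header belonged to which column. Per file, 2 count columns carried a code of no title and entered as replicates of their group. Over both files together, 4 columns of per-sample values were not used.

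Counts were summed to 27150 genes. The main test was edgeR 4.0.16 (R 4.3.3): quasi-likelihood, robust, TMM scaling, filterByExpr on treatment group, treatment group and kind of library as terms, 15 libraries, Benjamini-Hochberg adjustment over all genes. Standard errors were taken from the estimate and its F value, and intervals cover 95%. Alternatives were DESeq2 1.42.0, other scaling, filters, covariates and library sets. Of 318 genes in 21 lists, 315 matched a gene name, 3 of them through another symbol. Named genes were those of highest mean level in each list (up to 4, or 12 for adipocytes), the 10 largest increases and decreases, 8 genes most like Foxj1, 6 and 3 lncRNAs, and other list members past the threshold. Members left uncalled or absent and named beside them (such as Krt7, Lep, C1qa, Mcidas, Scgb1a1 and Tuba1a), and the 4 promoters, were chosen after their values were seen. Members, lists and the threshold were chosen with earlier results of these data known. Counting intervals and floors cover counting error only.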

Additional observations from a re-analysis of the deposited data

Results flagged for a closer look

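Dixon's test on summed list levels or Foxj1, within the 5 ciliated-rich and within the 10 other libraries, marked 5 of 28 groups of values, where chance marks about 1 in 20. Spermatogenic genes had 4214 CPM in metformin 2, against 25.9 to 79.7 CPM in the other 4 ciliated-rich libraries, and Leydig and Sertoli genes had 660 CPM there, against 14.3 to 19 CPM. Seminal vesicle genes had 276 CPM in normal diet 2, against 0 to 2.1 CPM in the other 4 ciliated-rich libraries. They had 1192 CPM in normal diet 4, against 0 to 42.4 CPM in the other 9 libraries of low Foxj1. Epididymis principal cell genes had 28.1 CPM in metformin 1, against 0.109 to 2.17 CPM in the 9 others. Carry-over of reads from resveratrol 4 into metformin 1 was not tested. Resveratrol 4, which entered no comparison, had 22878 CPM of epididymis principal cell genes, against 0.109 to 42.4 CPM in the 14 libraries compared other than metformin 2, which had 74.6 CPM. Its spermatogenic genes had 1294 CPM, against 13.4 to 79.7 CPM in the same 14.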

How the results depend on the processing

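Where resveratrol 4 was included, its Foxj1 level placed it among the others. The count of higher genes (1968) was 657 with resveratrol 4 included, and ranged from 1280 to 2113 when each library was left out in turn. The count of lower genes (734) was 1129 with DESeq2, 396 with no filter on low counts, 20 with resveratrol 4 and 462 without the HFD libraries, and ranged from 83 to 1127 with each library left out. The other settings kept both counts within 1.5 times, although with no treatment covariate only 337 of 799 lower genes were shared. The count of higher lncRNAs (1175) ranged from 461 to 1250 with a library left out. That of lower lncRNAs (200) was 308 with scaling on lncRNA counts and 120 with no treatment covariate, and ranged from 32 to 253. The 21 adipocyte genes inside 2-fold were 5 with resveratrol 4 included and 16 to 27 in the other settings. For 36 genes named among the fat, stroma and decrease lists, 671 values stayed on the same side of the threshold. Among these, uncalled genes could change direction. Fasn went from -0.17 to 0.18 without normal diet 1 and to 0.12 without normal diet 2. A further 140 values lost the call and kept the direction, and 16 newly passed. Of the called genes, Scd2 reversed to -0.17 with no treatment covariate. Of 28 calls, 26 were lost with resveratrol 4, 23 without metformin 1, 17 without normal diet 2 and 15 without resveratrol 2. Leaving out normal diet 2 or resveratrol 2 leaves that group with no ciliated-rich library, and leaving out metformin 1 leaves the metformin group with no other library. The cause of the remaining differences was not tested. No paired analysis was possible because the labels give no replicate numbers that groups share. At this depth, genes with 0 to 3 counts over the 10 others allow only a bound or a wide counting interval.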
